A study of Mus musculus with 4 samples.

Results

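Chemokines are small secreted proteins that guide the movement of cells, and their receptors are cell surface proteins of the G protein-coupled family. The members described here were the genes whose name in the scanner files follows the chemokine nomenclature, that is Ccl, Cxcl, Xcl or Cx3cl followed by a number for ligands and Ccr, Cxcr, Xcr or Cx3cr followed by a number for receptors. This name rule took 71 probes of 54 genes, 35 ligands and 19 receptors, out of 55681 non-control probes and 34821 gene names. It uses no measured value, and it leaves out chemokines and atypical receptors with other names, which are described after the receptors.

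RNA was measured on 4 single-colour mouse arrays, 2 of islet-like clusters and 2 of islets of Langerhans, from pancreas of male Swiss albino mice aged 10 to 12 weeks. Both groups started from collagenase digests of pooled pancreata of 2 to 4 mice, plated with 10% serum. The islets were flushed off the flasks after 48 h by their titles, although their descriptions call them freshly isolated. The clusters came from the fibroblast-like cells that stayed attached, which the submitters call MSC-like (resembling mesenchymal stromal cells) and which were passaged and then kept for 10 days in serum-free medium with albumin and insulin-transferrin-selenium on low-adherence dishes. The medium held 0.3 mM taurine from day 3, and from day 7 it held 3 mM taurine, 100 mM nicotinamide and GLP-1, a gut hormone that promotes insulin release. The groups therefore differ at once in cell source, passage, medium and time in culture, the islets are an isolate rather than sorted endocrine cells, and the attached cells before induction were not analysed here. Whether the 2 arrays of a group came from separate pools is not stated, so the p-values reflect array-to-array spread alone, and that spread may be technical.

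Chemokine ligands are named by the spacing of their first cysteines. Many ligands of the CXC class with a glutamate-leucine-arginine start attract neutrophils through CXCR2, the CXCR3 ligands are induced by interferon and attract T cells, and most CC ligands attract monocytes, eosinophils or lymphocytes. Typical receptors signal through inhibitory G proteins, while atypical receptors bind chemokines without this signal, and some of them remove chemokines. In the pancreas, islet cells, stromal cells and resident macrophages can all make chemokines, and Ccl2 and Cxcl10 are known for their release from inflamed islets.

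A value below is the log2 signal of a probe minus the 75th percentile of its array, so that 0 marks a probe brighter than 75% of the probes on that array. Levels of different genes come from different probes and are not set against each other. All changes are islet-like clusters minus islets from limma, with p-values adjusted over the 24595 genes tested, and each sentence with an adjusted p refers to that fit. Probes were well above background for 59.7% to 63.6% of spots per array, no spot was saturated, and arrays correlated at r = 0.985 for the clusters, 0.989 for the islets and 0.796 to 0.810 between the groups. The clusters carried all 8 mesenchymal stromal markers well above background and higher than the islets, with a summed signal of 1544 and 1289 in units of the 75th percentile against 41.9 and 48.1. Their endocrine markers summed to 0.911 and 0.59 against 179 and 30.2, and Gcg, Iapp, Ppy and Pdx1 were not well above background there. Acinar markers summed to 1.22 and 1.05 in the clusters against 3654 and 5681 in the islets, so the islet arrays also held RNA of exocrine genes. In such bulk samples, fewer cells of a type and less RNA per cell cannot be told apart, and the part of these marker shifts in any chemokine value was not tested.

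Of the 54 members, 40 passed the filter on dim probes and were tested, 28 ligands and 12 receptors. The other 14 are accounted for at the end of the results on receptors. Among the 28 ligands 12 were higher in the clusters, 10 were lower and 6 did not pass the test. Among the 12 receptors 1 was higher, 7 were lower and 4 did not pass. Across all 24595 genes 54.9% were called in either direction, 26.6% higher and 28.2% lower, so a call by itself was common in this comparison. The shares were 42.9% higher and 35.7% lower among the tested ligands, and 8.33% higher and 58.3% lower among the tested receptors. A member seen in 1 group only had to pass that filter through the group where it was bright. Among the 23 ligands with at least 1 probe well above background on each of the 4 arrays, 12 were higher and 5 lower, and among the 8 such receptors none was higher and 4 were lower. The shares over all genes above are for the looser filter. No share over all genes is given here under the stricter requirement, so these counts are not read as a trait of the members. The median change was 0.15 for the tested ligands, -0.69 for the tested receptors and -0.10 for all genes on the log2 scale. Scaling to the array median gave 2 receptors higher and 5 lower, quantile normalization 2 and 6, and normexp background correction 0 and 5. The ligand median was -0.28 without islet replicate 1 and 1.41 when probes had to be well above background on every array, so its sign was not stable.

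**Figure D1:**
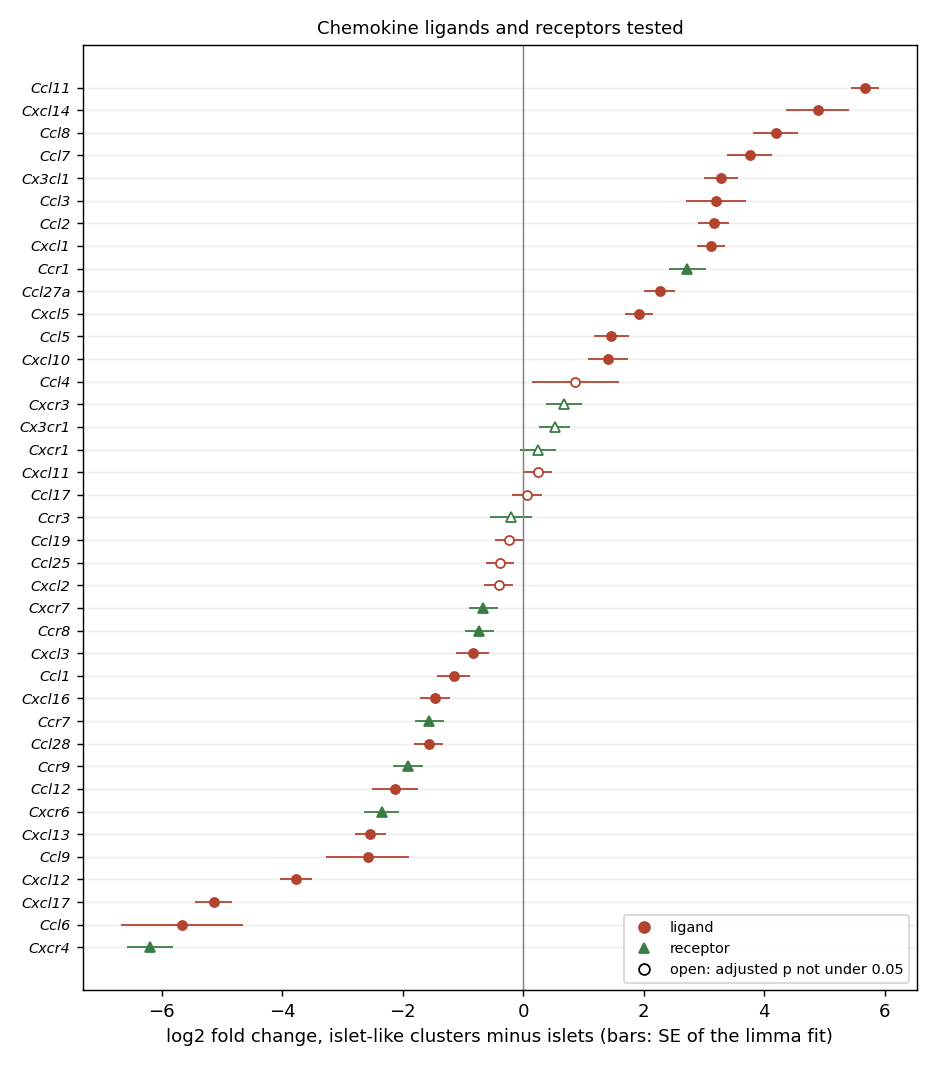
Log2 fold change of 39 of the 40 tested chemokine ligands (circles) and receptors (triangles), islet-like clusters minus islets, n = 2 arrays a group, with bars for the SE of the limma fit and open symbols where the adjusted p was not under 0.05. Ligands lie on both sides of 0, and Ccr1 is the only receptor called higher. For Ccl6, Ccl12, Cxcl13, Cxcl17, Ccr1, Ccr9 and Cxcr4, dim in 1 group, the point is a fitted value whose place in the order is not established, and the text gives their bounds.

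Of the 5 tested monocyte chemoattractants and eotaxins, 4 were higher in the clusters. Ccl11 is eotaxin, which attracts eosinophils through Ccr3. Its probe (mm9 chr11:81876072-81876131) read 3.37 and 3.19 in the clusters and -2.44 and -2.34 in the islets. All 4 arrays measured it above background and the groups were far apart. The change was 5.67 ± 0.23 (SE) on the log2 scale, 50.9-fold, with adjusted p = 6.34e-08 in limma, and 24.8-fold after normexp background correction.

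Ccl2, Ccl7 and Ccl8 are the monocyte chemoattractant proteins, which act through Ccr2 and other receptors. For Ccl2 (chr11:81850650-81850709) the cluster arrays gave 8.05 and 7.81 and the islet arrays 4.53 and 5.01. This probe is printed 10 times on each array, and the SD over its spots was 0.0389 and 0.0423 in the clusters and 0.113 and 0.0525 in the islets, below the distance between arrays of a group. Ccl2 was therefore bright in both groups and brighter in the clusters, by 3.16 ± 0.26 or 8.94-fold (limma adjusted p = 6.56e-06). Ccl7 (chr11:81860656-81860715) read 5.48 and 5.20 in the clusters and 0.96 and 2.20 in the islets. The islet arrays were apart by more than 1 unit, with replicate 2 the higher, and both stayed well below the clusters. Its change was 3.76 ± 0.37, 13.5-fold (limma adjusted p = 2.5e-05), and the fold was 8.83 without islet replicate 1 and 20.7 without islet replicate 2. Ccl8 (chr11:81930108-81930167) gave 1.45 and 1.25 against -3.46 and -2.22, the same order of islet arrays. The change of Ccl8 was 4.19 ± 0.37, 18.2-fold (limma adjusted p = 1.16e-05), with 11.9-fold without islet replicate 1, 28.0-fold without islet replicate 2 and 7.61-fold after normexp. Ccl12, a mouse monocyte chemoattractant of the same gene cluster, went the other way. It was not well above background on either cluster array and was at least 1.74-fold lower there (limma adjusted p = 0.00122, 0.0804 after normexp).

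**Figure D2:**
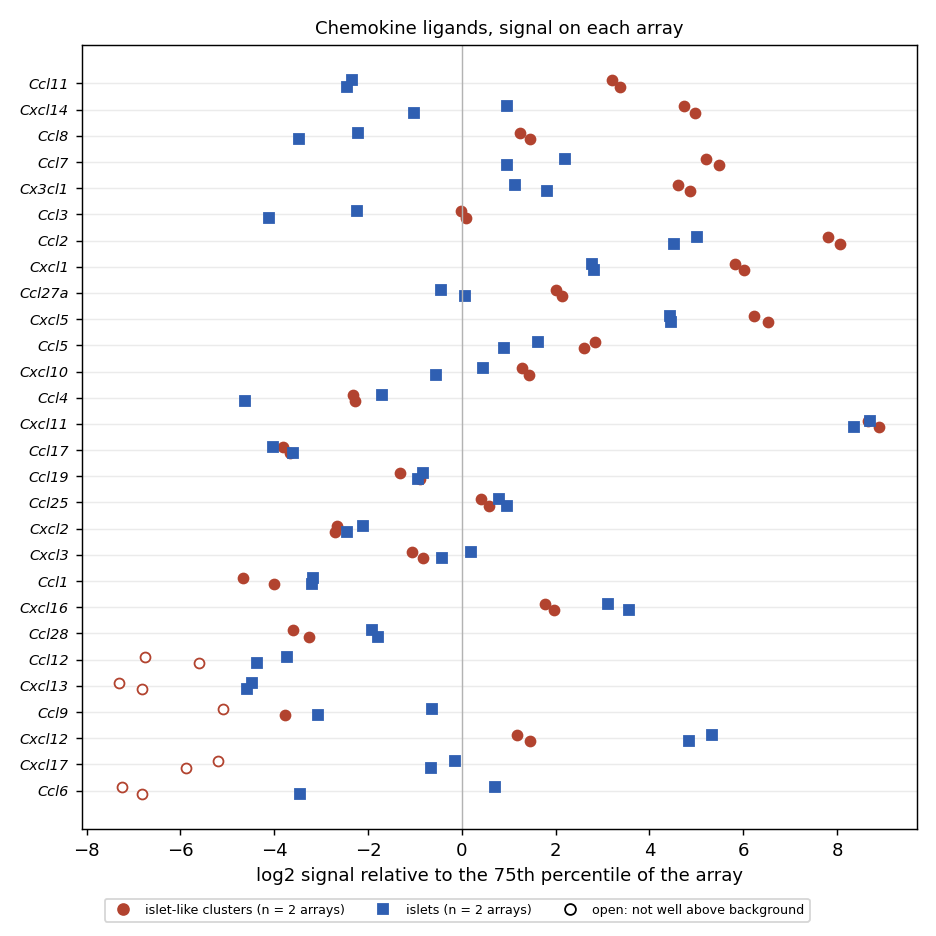
Log2 signal relative to the 75th percentile of the array (x axis) for the 28 tested ligands, with circles for the 2 islet-like cluster arrays, squares for the 2 islet arrays and open symbols where the probe was not well above background. The upper 12 genes show the clusters to the right of the islets, and for Ccl3, Ccl4, Ccl6, Ccl7, Ccl8, Ccl9, Cxcl10 and Cxcl14 the islet squares lie more than 1 unit apart. Positions of different genes are not comparable.

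The macrophage inflammatory proteins and their relatives were split. Ccl3, a ligand of Ccr1, read 0.08 and -0.02 in the clusters and -4.11 and -2.23 in the islets (chr11:83461358-83461417). Its cluster arrays were close to each other and above both islet arrays. The change was 3.20 ± 0.50, 9.20-fold (limma adjusted p = 4.94e-04). It was 4.79-fold without islet replicate 1, 17.7-fold without islet replicate 2 and 3.73-fold after normexp, and the adjusted p was 0.0551 without cluster replicate 1. Ccl5 (RANTES), which attracts T cells and monocytes, was 2.76-fold higher (limma adjusted p = 0.00214), with adjusted p = 0.062 without cluster replicate 2 and 0.107 without islet replicate 1. Ccl4, a close relative of Ccl3, gave -2.27 and -2.32 in the clusters and -4.61 and -1.71 in the islets. The islet arrays lay on either side of the clusters, and the change of 0.87 ± 0.72 did not pass (limma adjusted p = 0.332). Without islet replicate 2 the change of Ccl4 was 2.32, and without islet replicate 1 it was -0.59. It passed with a floor for dim signals (limma adjusted p = 0.0103) and among probes well above background on all arrays (0.00672). Neither setting altered the change of 0.87. These passes came from the fitted spread and the adjustment over genes, so they add no evidence from the signal of Ccl4.

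Ccl6 and Ccl9, CC ligands made by myeloid cells in mice, were lower in the clusters. Ccl6 (chr11:83401997-83402056) read -6.82 and -7.25 on the cluster arrays, both not well above background, and -3.46 and 0.71 on the islet arrays. Its islet arrays were 4.16 units apart, the widest gap of any tested member. The clusters were at least 11.1-fold lower (limma adjusted p = 0.00117), but the adjusted p was 0.0752 and 0.0849 without cluster replicate 1 and 2 in turn, and 0.165 with a variance trend. That bound was taken on the mean of the islet arrays, and the fold after normexp was 3.69, below it. The fitted fold was 214 without islet replicate 1 and 11.9 without islet replicate 2, both with cluster signals not well above background. Ccl9 (chr11:83388223-83388282) gave -3.76 and -5.10 in the clusters, where replicate 2 was not well above background, and -3.07 and -0.63 in the islets. The arrays of both groups were over 1 unit apart, and the lowest islet array was close to the highest cluster array. Its change was -2.58 ± 0.69 (limma adjusted p = 0.0111), which passed in neither fit that left out a cluster array (0.0880 and 0.234) and not with the authors' value table (0.0715). It also missed the threshold with scaling to the array median (0.0793), quantile normalization (0.0638), no filter on dim probes (0.0614), non-uniform spots kept (0.0724) and a variance trend (0.216). Its fold of 5.99 was 14.0 without islet replicate 1 and 2.56 without islet replicate 2.

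Among ligands of CXCR2, Cxcl1 and Cxcl5 were higher in the clusters, Cxcl3 was lower and Cxcl2 did not pass. Cxcl1 (KC in mice) read 6.02 and 5.82 in the clusters and 2.81 and 2.78 in the islets (chr5:91321845-91321904). Both groups were tight and far apart, with a change of 3.12 ± 0.23, 8.70-fold (limma adjusted p = 3.17e-06). Cxcl5 was 3.79-fold higher (limma adjusted p = 1.05e-04). Cxcl2 (MIP-2) gave -2.70 and -2.66 against -2.44 and -2.11, a change of -0.41 ± 0.24 (limma adjusted p = 0.176). Both cluster arrays of Cxcl2 lay just under both islet arrays. Cxcl3 changed by -0.83 ± 0.27 (limma adjusted p = 0.0281), and its adjusted p was between 0.0907 and 0.542 in every fit that left out 1 array. It also missed the threshold with scaling to the array median (0.0619), quantile normalization (0.0525) and no filter (0.0908). Markers of neutrophils, the cells these ligands attract, summed to 108 and 93.2 in the clusters and 50.2 and 74.9 in the islets, while Ly6g and S100a9 were not well above background on either cluster array. Most of that sum was Csf3r (6.54 and 6.35 against 5.39 and 5.42), and of the 6 markers 2 were higher in the clusters, 3 lower and 1 not called. Their part in these values was not tested.

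The start regions of these neighbouring genes are shown because Cxcl1, Cxcl2 and Cxcl3 differed in response and share the same letters there. Each is the 150 bases upstream of the start given by RefSeq, 5' to 3' on the plus strand of GRCm38.p6, with capitals for matches to the NF-kB motif searched on both strands.
Cxcl1: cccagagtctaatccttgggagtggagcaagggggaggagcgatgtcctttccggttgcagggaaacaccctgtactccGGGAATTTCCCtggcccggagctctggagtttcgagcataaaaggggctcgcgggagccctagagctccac
Cxcl2: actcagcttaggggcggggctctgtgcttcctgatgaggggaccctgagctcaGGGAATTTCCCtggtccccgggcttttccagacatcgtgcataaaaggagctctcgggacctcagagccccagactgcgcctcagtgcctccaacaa
Cxcl3: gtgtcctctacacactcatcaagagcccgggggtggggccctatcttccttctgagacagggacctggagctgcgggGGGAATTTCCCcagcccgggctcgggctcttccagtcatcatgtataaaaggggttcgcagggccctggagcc
They lie at chr5:90891095-90891244 for Cxcl1, chr5:90903749-90903898 for Cxcl2 and chr5:90785951-90786100 for Cxcl3, a build other than the mm9 of the probes. All 3 hold the same capital run, starting 71 bases before the start in Cxcl1, 97 in Cxcl2 and 73 in Cxcl3. In the 250 bases before the start, the NF-kB motif was found in 7 of the 24 ligands with a promoter in the RefSeq table (Ccl1, Ccl9, Ccl20, Cxcl1, Cxcl2, Cxcl3 and Cxcl10), and in 8.23% of all 27025 genes of that table. Among ligands with a promoter there, it was present in 2 of 7 called higher, 3 of 8 called lower and 1 of 4 not called. The full counts were 12 higher, 10 lower and 6 not called, so the other ligands could not be searched. These letters describe the windows and were not tested as binding sites.

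Of the CXCR3 ligands, Cxcl10 was 2.65-fold higher in the clusters, with 1.44 and 1.27 in the clusters and -0.56 and 0.46 in the islets. The groups did not overlap and the islet arrays were 1.02 units apart. Its change of 1.41 ± 0.33 passed (limma adjusted p = 0.00569), but the adjusted p was 0.111, 0.0848 and 0.205 without cluster replicate 1, cluster replicate 2 and islet replicate 1. The 250 bases before its start (GRCm38.p6 chr5:92348890-92349139, minus strand, RefSeq) are shown because they hold both motifs searched, with capitals for the interferon-stimulated response element (ISRE) motif, a short core of interferon-responsive promoters, near the start of the run and for NF-kB matches after it.
Cxcl10: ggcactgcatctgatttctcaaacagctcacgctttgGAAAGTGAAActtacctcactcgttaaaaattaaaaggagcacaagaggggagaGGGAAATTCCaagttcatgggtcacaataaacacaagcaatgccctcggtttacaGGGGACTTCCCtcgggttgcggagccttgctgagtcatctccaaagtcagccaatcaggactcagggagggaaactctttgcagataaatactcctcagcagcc
This ISRE motif was found on either strand in 3 of 24 ligands (Ccl19, Cxcl10 and Cxcl14), in 0 of 15 receptors and in 3.46% of all genes. It lies 213 bases before the start of Cxcl10.

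Cxcl11, the third CXCR3 ligand, has 2 probes that gave different changes. The brighter one read 8.89 and 8.67 in the clusters and 8.37 and 8.71 in the islets, with overlapping groups and a change of 0.24 ± 0.24 (limma adjusted p = 0.431, 0.0149 after quantile normalization). The other read 4.22 and 3.98 against 2.67 and 2.53, a change of 1.50 ± 0.24 (limma adjusted p over probes = 0.00104). Part of each probe's 60-base target is printed, the brighter probe first (mm9 chr5:92788567-92788626, then chr5:92788640-92788699), because capitals mark a 16-base run that recurs elsewhere.
Cxcl11 brighter probe: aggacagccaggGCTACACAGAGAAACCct
Cxcl11 other probe: cagcacttgaaAGGCAGAGGCAGGAGGatc
The run of the brighter probe occurs in 12 other probes of the array, for 12 other gene names, and in promoters of 20 genes of the RefSeq table. The run of the other probe occurs in 1 other probe and in promoters of 2 genes. Counting every run of this length, the brighter probe shared one with 19 probes of other genes and the other probe with 2. Neither signal can be assigned to Cxcl11 alone from these files, and without Cxcl11 the ligand median was 0.07. Probes of Ccl17, Ccl25, Ccl27a, Ccr1 and Cxcr7 shared such a run with 1 or 2 probes of other genes as well.

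Of the other CXC ligands, Cxcl14 was higher in the clusters and Cxcl12, Cxcl13, Cxcl16 and Cxcl17 were lower. Cxcl14 is made by fibroblasts and epithelia. It read 4.97 and 4.73 in the clusters and -1.03 and 0.95 in the islets (chr13:56390078-56390137). The islet arrays were 1.98 units apart and both were far below the clusters. Its change was 4.89 ± 0.52, 29.6-fold (limma adjusted p = 4.09e-05), with 14.9-fold without islet replicate 1, 58.8-fold without islet replicate 2 and adjusted p = 0.0642 with a variance trend.

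Cxcl12 is the ligand of Cxcr4 and Cxcr7, retains blood stem cells in the marrow and is a usual product of stromal cells. Its brighter probe (chr6:117131227-117131286) gave 1.45 and 1.18 in the clusters and 4.83 and 5.33 in the islets. It was well above background in both groups and lower in the clusters by 13.6-fold (-3.77 ± 0.26, limma adjusted p = 2.05e-06). The files assign the other probe (chr6:117125026-117125085) to a different transcript of the gene. That probe read 2.16 and 2.16 against 3.00 and 2.77, a change of -0.72 ± 0.23 (limma adjusted p over probes = 0.0302). Both probes were lower in the clusters, by very different amounts, and their mean gave 4.74-fold.

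Cxcl17, a chemokine of mucosal epithelia, read -5.88 and -5.20 in the clusters, both not well above background, and -0.67 and -0.14 in the islets (chr7:26185079-26185138). It was measured in the islets only and was at least 21.7-fold lower in the clusters (limma adjusted p = 7.06e-07), or 4.85-fold after normexp. Cxcl13, which attracts B cells, was not well above background in the clusters either. Its bound was at least 1.25-fold (limma adjusted p = 2.59e-05), and with a floor for dim signals it no longer passed (0.283). Cxcl16, a membrane-anchored ligand of Cxcr6, was 2.76-fold lower (limma adjusted p = 9.38e-04, 0.0606 without islet replicate 1).

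**Figure D3:**
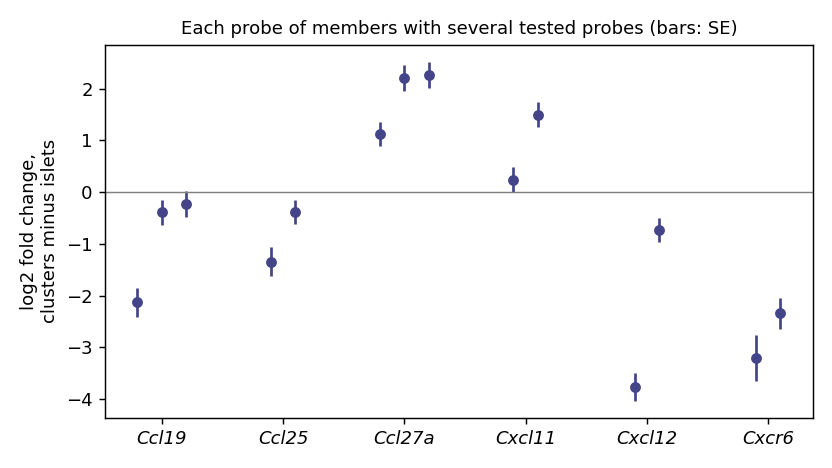
Log2 fold change with its SE for every tested probe of the 6 members that had several, islet-like clusters minus islets, n = 2 arrays a group. No member had probes of opposite sign, but the probes of Ccl19, Cxcl11 and Cxcl12 are far apart, as for Cxcl12 at -3.77 and -0.72. For Ccl19 and Cxcr6 the lowest probe was not well above background on either cluster array, so its place is a fitted value only.

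Cx3cl1 (fractalkine), a membrane-anchored chemokine that binds Cx3cr1, read 4.88 and 4.62 in the clusters and 1.81 and 1.13 in the islets (chr8:97306185-97306244). It was higher in the clusters by 3.28 ± 0.28, 9.69-fold (limma adjusted p = 9.59e-06). Here the islet arrays ran the other way from Ccl7 and Ccl8, with replicate 1 the higher.

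Of 6 tested CC ligands of lymphoid tissue and epithelia, 1 was higher, 2 were lower and 3 did not pass. Ccl27a, a skin chemokine, was 4.81-fold higher (2.27 ± 0.26, limma adjusted p = 6.22e-05). Its other probes gave 2.21 and 1.13, in the same direction, and near-identical copies of this gene in the mouse genome make its signal uncertain. Ccl28, a mucosal chemokine, was 2.96-fold lower (limma adjusted p = 4.71e-04), or 1.70-fold after normexp. Ccl1, the ligand of Ccr8, was 2.22-fold lower (limma adjusted p = 0.00583), with adjusted p = 0.0708 after normexp, 0.0554 without cluster replicate 2, 0.0829 without islet replicate 1 and 0.103 without islet replicate 2. Ccl17, Ccl19 and Ccl25 did not pass. Ccl17, a ligand of Ccr4, read -3.66 and -3.82 in the clusters and -3.60 and -4.01 in the islets, a change of 0.07 ± 0.25 (limma adjusted p = 0.836). The islet arrays enclosed both cluster arrays. Ccl19, a ligand of Ccr7 in lymph nodes, gave -0.89 and -1.31 against -0.92 and -0.82 (limma adjusted p = 0.459). Its other probes changed by -0.39 and -2.13. The probe at -2.13 was not well above background on either cluster array (-5.79 and -6.33), so that change is a fitted value without a measured size. The mean of the Ccl19 probes, which includes it, passed at -0.92 (limma adjusted p = 0.0118). Copies of the Ccl19 locus in mice leave it uncertain too. Ccl25, a thymus and gut chemokine, read 0.58 and 0.41 against 0.96 and 0.80 (limma adjusted p = 0.183, 0.0419 when arrays were scaled on commonly detected probes). Its second measured probe changed by -1.34 (limma adjusted p over probes = 0.00433), and the mean of its probes passed at -0.87 (0.0144).

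Many of these ligands are neighbours in the genome, and the genes of a stretch did not all share a direction. On mm9 chromosome 11 the probes of Ccl2, Ccl7, Ccl11, Ccl12, Ccl8 and Ccl1 lie in that order within 140 kb (81850650 to 81990510), of which 4 were higher and 2 lower. Within 139 kb farther along (83339296 to 83478111) Ccl5 and Ccl3 were higher, Ccl9 and Ccl6, which lie between them, were lower, and Ccl4 did not pass. On chromosome 5 Cxcl5, Cxcl3, Cxcl1 and Cxcl2 span 144 kb with 2 higher, 1 lower and 1 not called. Cxcl9, Cxcl10 and Cxcl11 span 35.8 kb of that chromosome, with 1 higher, 0 lower, 1 not called and Cxcl9 not tested. In these stretches the calls of Ccl1, Ccl3, Ccl5, Ccl6, Ccl9, Ccl12, Cxcl3 and Cxcl10 were each lost under at least 1 alternative.

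Chemokine receptors are carried above all by leukocytes. Leukocyte markers were present on both kinds of array. The macrophage and monocyte list summed to 55.6 and 47.3 in the clusters and 161 and 189 in the islets, with Mrc1 not well above background in the clusters and Lyz2 not in the islets. In the islets most of this sum was Cd14, at 7.01 and 7.11. In the clusters Cd14 was at 4.50 and 4.28 and was not most of the sum, and the list was split. Of its 9 tested markers 4 were lower in the clusters (Ptprc, Cd68, Aif1 and Cd14), 2 were higher (Tyrobp 17.2-fold and Lyz2 at least 2.49-fold), and Itgam, Emr1 and Csf1r did not pass. The T and NK cell list summed to 7.57 and 5.97 against 6.71 and 8.34, with Cd3d and Klrb1c not well above background in either group. Endothelial markers summed to 3.56 and 2.90 against 16.1 and 16.2, with Cdh5, Tek, Emcn and Robo4 not above background in the clusters. The part of these cells in the receptor values was not tested. Cxcr4, the signalling receptor of Cxcl12, was not measured above background in the clusters. Its probe (chr1:130485079-130485138) gave -6.82 and -5.48 there and 0.04 and 0.03 in the islets. The islet arrays were nearly equal and the clusters had only an upper limit. With the main background handling Cxcr4 was at least 29.5-fold lower (limma adjusted p = 1.03e-06). The fitted fold of 73.0 was 45.9 when cluster replicate 1 was left out and 116 when cluster replicate 2 was. After normexp it was 6.13, below that bound. Cxcr7, now Ackr3, an atypical receptor that takes up Cxcl12 and Cxcl11, read 0.39 and 0.48 against 1.26 and 0.93. It was lower by a small amount (-0.66 ± 0.24, limma adjusted p = 0.0416), and the adjusted p was 0.115 to 0.531 in every fit that left out 1 array, 0.0534 after normexp, 0.141 with scaling to the array median and 0.110 with no filter. Cxcl12 and both of its receptors were thus called lower in the clusters, and the call of Cxcr7 was lost without any of the 4 arrays.

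Cxcr6, the receptor of Cxcl16 on T and NKT cells, gave -4.04 and -4.16 against -2.13 and -1.38, above background on all arrays. The clusters were lower by 5.08-fold (limma adjusted p = 1.06e-04), or 2.09-fold after normexp. The other probe of Cxcr6 was not well above background on either cluster array (-6.13 and -5.43). Its change of -3.21 is thus a fitted value without a measured size.

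Ccr9, the receptor of Ccl25, read -5.55 and -5.06 in the clusters, not well above background, and -3.48 and -3.30 in the islets. It was at least 2.74-fold lower (limma adjusted p = 1.95e-04), or 1.47-fold after normexp. Ccr7, which guides T cells and dendritic cells to lymph nodes, gave -1.91 and -2.24 against -0.41 and -0.63, 2.94-fold lower (limma adjusted p = 5.22e-04). Both arrays of each group were close and the groups were separate. Ccr8, a receptor of Ccl1 on T cells, changed by -0.73 ± 0.24 (limma adjusted p = 0.0271), with adjusted p between 0.0748 and 0.436 in every fit that left out 1 array. It was 0.0905 after normexp, 0.0999 with scaling to the array median, 0.0742 with quantile normalization and 0.0812 with no filter.

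Ccr1, a receptor of Ccl3 and Ccl5 on myeloid cells, was the 1 receptor called higher. It read -3.45 and -4.11 in the clusters and -6.18 and -6.83 in the islets, where it was not well above background. The clusters were at least 2.28-fold higher (limma adjusted p = 6.83e-05), whereas normexp gave 1.20-fold (adjusted p = 0.368). The region before its start is shown (100 bases, GRCm38.p6 chr9:123968693-123968792, minus strand, RefSeq), with an NF-kB match in capitals. Among called receptors with a promoter in the RefSeq set, 1 higher and 5 of 7 lower, Ccr1 alone held such a match.
Ccr1: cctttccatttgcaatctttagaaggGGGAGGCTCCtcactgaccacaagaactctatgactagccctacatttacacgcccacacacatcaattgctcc
Of the 15 receptors with a promoter in the RefSeq set, 3 held this motif in their 250 bases (Ccr1, Ccr3 and Ccr6).

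The other 4 tested receptors did not pass. Cxcr1, Cxcr3 and Ccr3 were well above background on all arrays, and the probe of Cx3cr1 on all but islet replicate 2. Cxcr3, the receptor of Cxcl10 on T cells, read -2.98 and -3.82 in the clusters and -4.16 and -4.00 in the islets (0.68 ± 0.30, limma adjusted p = 0.0836). Its groups did not overlap, and the adjusted p was 0.0486 with scaling to the array median, 0.0406 with quantile normalization, 0.0384 where dim probes were filtered on all 4 arrays, 0.0193 with a floor and 0.0316 without cluster replicate 2. Cx3cr1, the fractalkine receptor of monocytes and microglia, gave -4.34 and -4.18 against -4.53 and -5.04 (0.53 ± 0.26, limma adjusted p = 0.113). Its ligand had changed by 3.28. Cxcr1 read -4.04 and -4.57 against -4.87 and -4.25 (limma adjusted p = 0.499), and Ccr3, the eotaxin receptor, -3.38 and -4.10 against -3.99 and -3.10 (limma adjusted p = 0.656). The groups of these last receptors overlapped, and differences of this size were not detectable with 2 arrays a group.

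**Figure D4:**
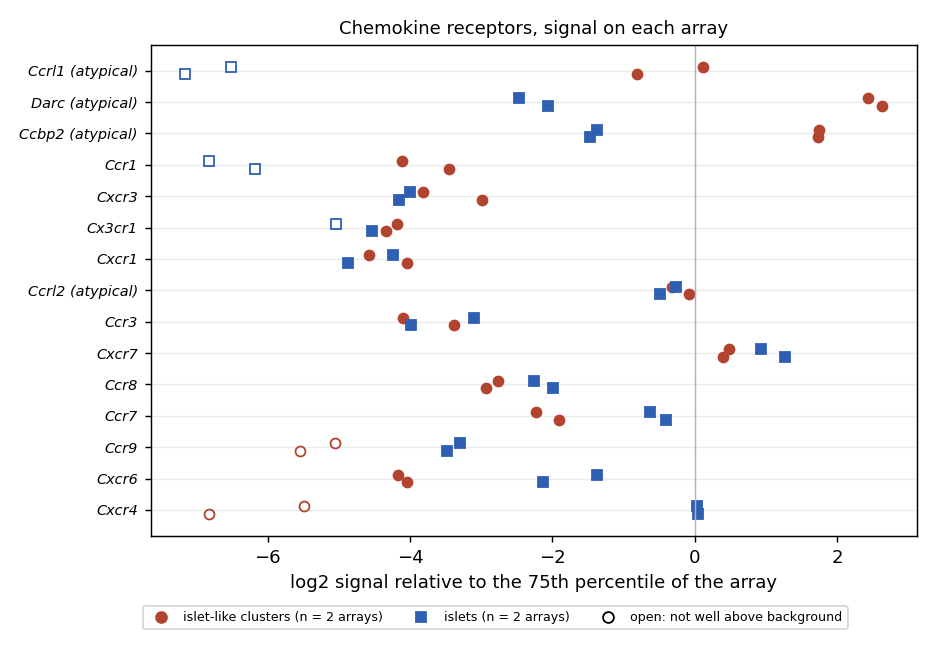
Log2 signal relative to the 75th percentile of the array (x axis) for 11 of the 12 tested receptors and 4 atypical receptors with other names, with circles for the 2 islet-like cluster arrays, squares for the 2 islet arrays and open symbols where the probe was not well above background. Cxcr4 is at 0.04 and 0.03 in the islets with both cluster circles open, and Darc, Ccbp2 and Ccrl1 lie higher in the clusters. Positions of different genes are not comparable.

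The 14 remaining members, 7 ligands and 7 receptors, were not tested. Ccl20, Ccl22, Ccl24, Ccl26, Xcl1, Ccr4, Ccr6, Cxcr2, Cxcr5 and Xcr1 were not well above background on any of the 4 arrays. Cxcl9 was above it on islet replicate 2 only, Cxcl15 on cluster replicate 1 only, Ccr2 on islet replicate 1 only, and Ccr10 on cluster replicate 2 and islet replicate 1. The receptor of Cxcl1 and Cxcl5 (Cxcr2) and the receptor of Ccl2 and Ccl7 (Ccr2) were thus not measured above background in the clusters, where these ligands were higher than in islets. Their levels have only an upper limit here.

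Of 10 chemokine system genes outside the name rule, 9 were tested, with 3 higher, 3 lower and 3 not called. The 3 higher ones are atypical receptors that bind chemokines. Ccrl1 (Ackr4, for Ccl19 and Ccl25) read -0.81 and 0.12 in the clusters and -7.16 and -6.51 in the islets, where it was not well above background, and was at least 24.7-fold higher (limma adjusted p = 3.72e-07). Darc (Ackr1, a broad chemokine binder) gave 2.63 and 2.43 against -2.06 and -2.46, 27.7-fold higher (limma adjusted p = 3.01e-07). Ccbp2 (Ackr2, for inflammatory CC ligands) gave 1.74 and 1.75 against -1.48 and -1.38, 9.01-fold higher (limma adjusted p = 2.55e-06). Cxcr7, the atypical receptor inside the name rule, moved the other way, and Ccrl2 did not pass (0.17, limma adjusted p = 0.562). The lower genes were the platelet chemokines Pf4 (-4.74, limma adjusted p = 1.26e-05) and Ppbp (at least 4.63-fold, adjusted p = 0.00195) and Dpp4, the protease that trims chemokines such as Cxcl12 (at least 5.73-fold, adjusted p = 5.59e-07). Cklf and Rarres2 did not pass.

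Of 24 genes of chemokine receptor signalling 22 were tested, and 6 were higher and 10 lower in the clusters. The largest increases were in the G protein subunit Gng2 (4.97), Rgs16 (3.89), which shortens G protein signals, and the receptor kinase Grk5 (3.46). The largest decreases were in Vav1 (-6.30, above background on 1 of 2 cluster arrays), the leukocyte kinase subunit Pik3cg (at least 8.45-fold) and Ptk2b (-2.38). Among 19 tested genes of NF-kB and inflammatory induction 10 were higher and 2 lower. Il1a (6.52, above background on 1 of 2 islet arrays), Il6 (5.86) and the endotoxin receptor Tlr4 (4.61) led the increases, and Tnf (-5.49, above background on 1 of 2 cluster arrays) and Tnfaip3 (-1.08) were the decreases. Of 14 tested interferon genes 1, the receptor chain Ifnar1 (1.91), was higher and 11 were lower, led by Irf7 (-5.61), Usp18 (-4.48) and Mx1 (at least 13.5-fold). Cxcl10, itself interferon-inducible, was called higher beside these 11 lower genes. All values in this paragraph are log2 changes or bounds with limma adjusted p under the threshold of 0.05, read against the 26.6% higher and 28.2% lower of all genes.

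More members differed between the 2 islet arrays than between the 2 cluster arrays. Between islet arrays 9 of 40 tested members (22.5%) differed by more than 1 log2 unit, against 4.86% of all genes, and all 9 were higher on replicate 2, among them Ccl3, Ccl4, Ccl6, Ccl7, Ccl8, Ccl9, Cxcl10 and Cxcl14. Between cluster arrays 3 members did so (Ccl12, Ccl9 and Cxcr4; 7.5%), against 4.48% of all genes. Several marker lists also differed between the islet arrays, others little. The neutrophil markers had a median difference of -1.95 (islet replicate 1 minus 2), with S100a9 at -1.50 and 3.52 and Ly6g at 0.96 and 2.23. The erythroid list summed to 0.771 and 4.65 on the islet arrays, and the macrophage list, mostly Cd14, to 161 and 189, with Lyz2 not well above background. The median difference was -0.51 for macrophage and monocyte, -0.43 for T and NK cell and -0.53 for B cell markers. It was -0.22 for dendritic cell and -0.13 for mast cell markers. Endocrine markers were higher on replicate 1, at 179 against 30.2, and the sum of acinar markers was higher on replicate 2, at 5681 against 3654. The part of these cells in the chemokine values was not tested. A fit that left out 1 islet array had only the 2 cluster arrays for the spread, so it could not weigh the gap between islet arrays. Its calls are therefore not counted here as support. Without islet replicate 1 the fitted fold was 214 for Ccl6 and 14.0 for Ccl9, both lower in the clusters. Without islet replicate 2 it was 11.9 and 2.56.

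**Figure D5:**
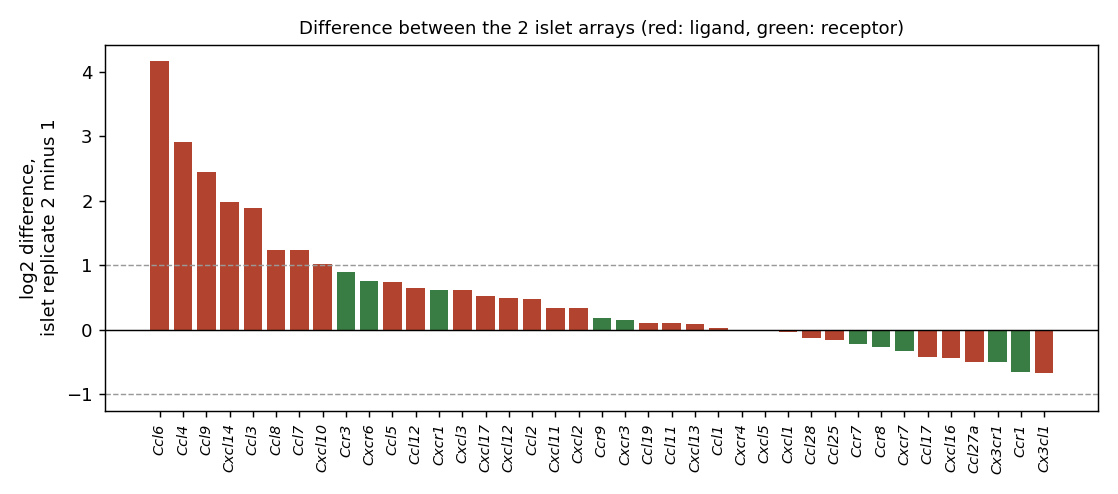
Log2 difference between the islet arrays, replicate 2 minus replicate 1, for 39 of the 40 tested members (red for ligands, green for receptors), with dashed lines at 1 and -1. The bars of 8 members pass 1, all on the side of replicate 2, and none passes -1.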

How the data were processed

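The authors deposited 4 scanner files of spot intensity on a linear scale, made with Agilent Feature Extraction 11.5.1.1 per the file headers, with probe positions on mm9 and no exon or UTR annotation. Per the file headers background is subtracted from the processed intensity and dim spots carry a surrogate value. Flags for non-uniform, saturated and well-detected spots, which are codes without a unit, were used as deposited. The authors' value table holds log2 values (column medians -3.61, -3.70, -3.50 and -3.37), each following its own array's scanner log2 signal with no centring per gene. It was used as an alternative only.

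Values analysed were log2 processed intensity minus the 75th percentile of each array. Control and non-uniform spots were left out, spots of a probe were averaged, 490 of 55681 probes had no value, and 34971 were kept because both arrays of 1 group or of each group had them well above background. A gene was its probe with the highest mean, giving 24595 genes. Groups were taken from the sample titles and compared with limma 3.58.1 under R 4.3.3 (eBayes after lmFit, 2-sided, 9.06 total degrees of freedom, Benjamini-Hochberg adjusted p, threshold 0.05). The script was tested on simulated data. A gene with no probe well above background in a group has only a bound there, written "at least", set against the lowest well-detected signal of each array or the probe's own signal where higher. The bound is taken on group means and holds for the main background handling only. After normexp, which adds an offset of 50, the folds of Ccl6, Ccl12, Cxcl17, Ccr1, Ccr9 and Cxcr4 fell below it. The 4 arrays limit the precision of every value.

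Replicate numbers are shared by the groups but gave no sign of pairing: the correlation of same-numbered deviations was -0.02. Every tested receptor and every member called with a log2 change of at least 1 is named, except 1 that is not reported here although the counts include it, with values per array for the 12 ligands and 6 receptors of largest change, for Cxcl12, Cxcr4 and Cxcr7, and for members that did not pass, and up to 3 genes per direction of each pathway list. Members, lists and tests were chosen with earlier results of these data known. Promoters come from RefSeq (GRCm38.p6). Protein patterns were not examined, since no protein table was used here.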

Additional observations from a re-analysis of the deposited data

How the results depend on the processing

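No called member changed sign under any of the 16 alternatives. Of the values of single members 553 kept direction and side of the threshold, 53 no longer passed, 13 newly passed and 11, of members that did not pass in either fit, changed sign. The sign changes were of Ccl17 (-0.17 with normexp, -0.088 with scaling over commonly detected probes, -0.14 to 0.28 leaving out 1 array), Ccl4 (-0.59 to 2.32 leaving out 1 array), Ccr3 (-0.64 to 0.25 leaving out 1 array), Cx3cr1 (-0.11 with normexp) and Cxcr1 (-0.15 with normexp, -0.061 to 0.56 leaving out 1 array). Scaling moved the median of all genes by 0.20 (array median), -0.15 (probes detected on all arrays) and 0.09 (quantile) on the log2 scale. With normexp 0 receptors were higher, while scaling to the array median, quantile normalization and the floor each gave 2. Using only probes well above background on all arrays gave 5 ligands lower, a ligand median of 1.41, 4 receptors lower and 1 lower gene outside the name rule, by construction with fewer genes tested. A variance trend gave 5 lower genes in the NF-kB list. The cause of the other shifts was not tested. Normexp moved the fold of 15 of the 30 called members by over 1.5 times, the floor 7, and leaving out either islet array 7. With the replicate number as a block, 12 ligands were higher and 8 lower, 1 receptor was higher and 5 lower, and 5729 and 5577 genes were called. This block ended the calls of Ccl9, Cxcl3, Ccr8 and Cxcr7 and no other member call. Leaving out 1 array at a time gave 10 to 13 ligands higher and 6 to 8 lower, 1 to 2 receptors higher and 4 to 6 lower, ligand medians of -0.28 to 0.35, receptor medians of -0.85 to -0.62, 3939 to 5421 genes higher and 3996 to 5323 lower. The lowest counts of all genes came without islet replicate 2 (4185 and 4402 without islet replicate 1), and those of ligands and receptors lower (6 and 4) without cluster replicate 2. For the lists these fits gave 7 to 10 higher and 1 to 2 lower (NF-kB), 1 to 2 higher and 10 to 11 lower (interferon), 6 higher and 8 to 9 lower (receptor signalling), and 3 higher and 2 to 3 lower (outside the name rule). Members near the floor have bounds, so their order and fitted folds carry little information.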
